A study of Mus musculus with 16 samples.

Results

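The regions described here are the 1000 strong RNA polymerase II (Pol2) summits of activated mouse B cells that carried the most Myc over control, out of 6670 strong Pol2 summits in all. Reads were counted by their midpoints in 500 bp bins of chromosomes 1 to 19. A bin was a strong Pol2 summit when it held at least 20 reads of the Pol2 library of B cells given lipopolysaccharide (LPS), when its Pol2 level in RPM (reads scaled to library size) was at least 4 times the pooled control level plus 0.1 RPM, and when no bin within 2 kb was higher. The summits were then ranked by log2 of pooled Myc RPM over pooled control RPM in the same cells, with 0.1 RPM added to both. The 1000 highest are called the Myc-high summits here, and the 5670 others are called the other summits.

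Myc is a transcription factor that binds DNA as a pair with its partner Max, mostly at E-box motifs in promoters that are already open and loaded with Pol2. Resting lymphocytes hold little Myc, and mitogens such as LPS for B cells or the lectin concanavalin A (ConA) for T cells induce it within hours. A strong Pol2 summit commonly marks polymerase held close to the start of a transcribed gene. The small molecule 10058-F4 interferes with the joining of Myc and Max.

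Chromatin of mouse splenic lymphocytes was taken down by anti-EGFP, which captured Myc through its EGFP tag, by an antibody to Pol2, or by non-specific IgG as the control. Quiescent B cells without treatment (B0) gave 1 Myc and 1 IgG library, and B cells after 4 h with 25 µg/ml of LPS (B4) gave 2 Myc, 3 IgG and 1 Pol2 library. B cells given LPS and 10058-F4 for 4 h gave 1 Myc, 2 IgG and 1 Pol2 library, and the dose of 10058-F4 is not given in the sources used here. T cells given 7.5 µg/ml of ConA for 4 h (T4) or 14 h (T14) gave 1 Myc and 1 IgG library each. By its title, the study asked about Myc as an amplifier of expression across genes. Strain, age and genotype of the mice are not given in the sources used here. Neither is the meaning of the mark wt in the titles of B4 Pol2 and of B4 IgG replicate 2, nor whether libraries of a group came from separate animals. All p-values therefore measure only the spread between these libraries. The tissue and cell types were not checked against marker genes, because no annotation of the files' build was used here. For the same reason the summits are given by position in mm8, with no gene and no sequence.

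The libraries differed in more than treatment. Reads on chromosomes 1 to 19 numbered 1278471 to 7433203 per library, and read lengths were 24 to 30 bases in B4 Myc replicate 1 and B4 IgG replicate 1, 25 bases in T cells and 45 bases elsewhere. X chromosome reads, as a percentage of chromosome 3 reads, were 60.1 to 69.8 in both B4 Myc libraries, B4 IgG replicates 1 and 3 and the 10058-F4 Myc library and IgG replicate 2. They were 35.1 to 43.6 in the B0 libraries, both Pol2 libraries, B4 IgG replicate 2 and 10058-F4 IgG replicate 1. In T cells they were 52.2 in T4 Myc, 57.5 in T4 IgG, 46.7 in the library titled T14 Myc and 40.0 in that titled T14 IgG. The part of these differences in the results was not tested. For T14 the antibodies in the sample titles and those in the names of the deposited files are the reverse of each other, so the T14 libraries entered no comparison of states and are named by their titles.

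The Myc-high summits were chosen by their B4 Myc, B4 IgG and B4 Pol2 reads, so these values are a description and support nothing by themselves. The log2 of B4 Myc over IgG ran from 5.92 at the first rank through 3.72 at rank 100 and a median of 2.75 to 2.28 at the last, against a median of 0.95 at the other summits. The Myc-high summits held 3 to 94 Myc reads summed over both B4 libraries, with a median of 17, and 0 to 16 IgG reads summed over the 3 B4 IgG libraries, with a median of 3. At the other summits the medians were 7 Myc and 7 IgG reads. The choice thus took summits that were high in Myc and also summits that were low in IgG: 48 had 0 IgG reads and 174 had at most 1. Only 536 of the 1000 would have been taken by B4 Myc RPM alone. Each B4 Myc replicate was at least 2-fold over the pooled B4 IgG level at most of them, replicate 1 at 987, replicate 2 at 959 and both at 946. The ranking used the same reads and the same pooled control.

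The threshold itself was not sharp. At the last place inside, chr12:100588501-100589000, the B4 Myc libraries held 3 and 15 reads and the IgG libraries 0, 2 and 4. At the first place outside, chr15:43112501-43113000, they held 6 and 12 against 0, 1 and 5, and the log2 value was the same 2.28. In all, 9 summits shared that value, of which genome order put 6 inside and 3 outside. Further places inside, chr9:102482001-102482500 and chr12:88361001-88361500, and outside, chr16:11089501-11090000 and chr16:96187001-96187500, had this value too.

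The 10 highest-ranked summits fell into a few with many reads and more with few reads and no IgG. At chr2:152090001-152090500, the first rank, B4 Myc had 24 and 8 reads against 0 in each of the 3 IgG libraries. At chr4:154836001-154836500 there were 50 and 29 Myc reads against 0, 0 and 2 IgG reads, and at chr5:142620001-142620500 there were 48 and 46 against 1, 0 and 3. Those 2 were the only summits of the 10 with over 20 Myc reads in both libraries. At chr2:167898501-167899000 replicate 1 had 28 reads and replicate 2 had 10, with 1 IgG read in all. The remaining 6 had 6 to 13 Myc reads in each library and 0 IgG reads: chr10:117195501-117196000, chr2:124938501-124939000, chr5:150942001-150942500, chr11:62464501-62465000, chr9:63971501-63972000 and chr11:77324001-77324500.

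**Figure D1:**
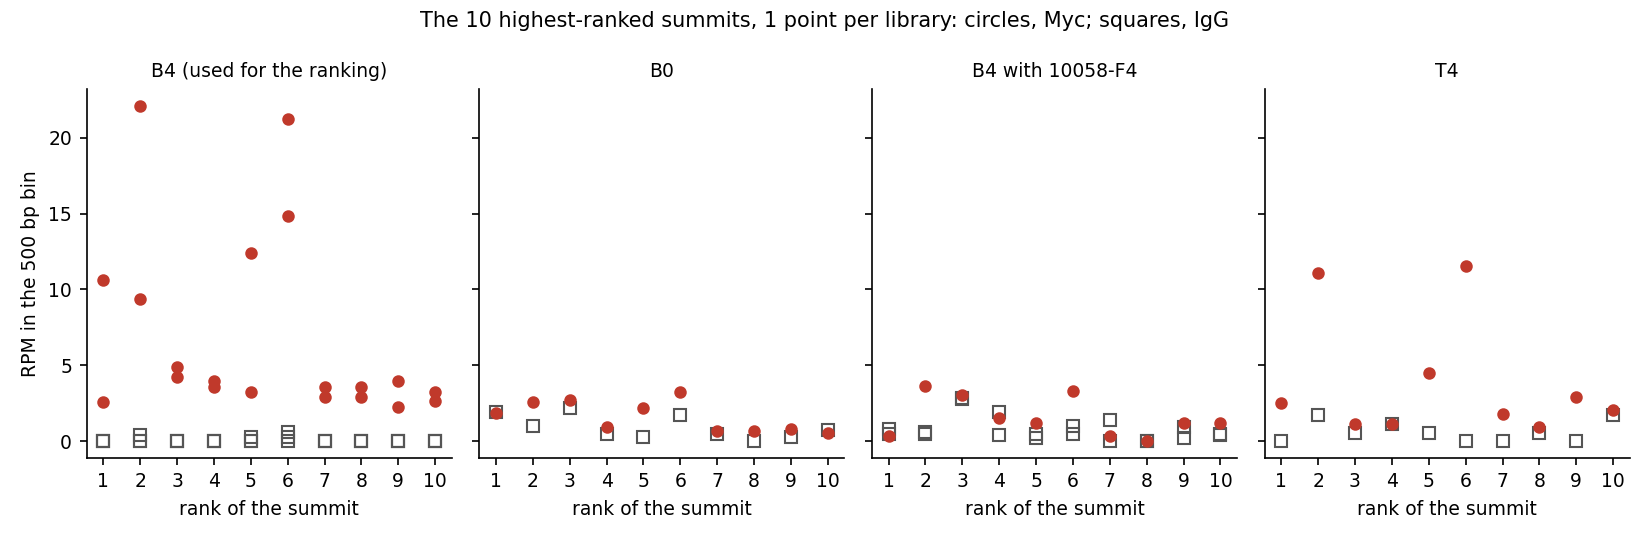
Level in RPM in the 500 bp bin (y axis) of each library at the 10 highest-ranked summits (x axis, rank), by cell state; circles are Myc libraries and squares IgG libraries. In T4 the summits of rank 2 and 6 reach 11.1 and 11.5 RPM, and in B0 no Myc level of the 10 passes 3.23 RPM.

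Libraries that played no part in the choice show where else these summits carried Myc. In T cells after 4 h of ConA the mean Myc level was 2.12 RPM at the Myc-high summits and 1.30 RPM at the other summits, while the T4 IgG level was 0.669 and 0.750 RPM. In B0 the Myc level was 1.39 against 1.26 RPM and the IgG level 1.03 against 1.02 RPM. With 10058-F4 the Myc level was 1.34 against 1.16 RPM, and the IgG levels were 0.912 against 0.973 RPM in replicate 1 and 0.749 against 0.810 RPM in replicate 2. Myc libraries were thus higher at the Myc-high summits in all 3 states, most in T4, and IgG libraries were level or lower. On the log2 scale the excess over the other summits was 0.70 in T4 Myc, 0.21 in 10058-F4 Myc and 0.15 in B0 Myc, and -0.16 to 0.01 in the 4 IgG libraries.

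Over libraries the excess was 0.35 ± 0.30 (SD, n = 3) for Myc and -0.09 ± 0.07 (SD, n = 4) for IgG, a difference of 0.44. The groups did not overlap, and the two-sided exact permutation p was 0.0571. That is the smallest that 3 against 4 libraries can give, so no threshold of 0.05 could be reached. The permutation exchanged libraries across cell states, so it did not keep Myc and IgG of a state together. It also counted both 10058-F4 IgG libraries singly. Taken within each state, Myc minus IgG was 0.87 in T4, 0.31 with 10058-F4 and 0.13 in B0, with no test of these differences. Without the T4 Myc library the difference was 0.27. If the T14 libraries are added as titled it is 0.12, with an exact permutation p of 0.603. That value puts the library labelled T14 IgG, at 0.94 the highest of those not used in the choice, among the controls, and the library labelled T14 Myc, at -0.12, with Myc, so it turns on titles that are in doubt. Some of the comparison rests on how IgG entered the ranking: with the 1000 summits of highest B4 Myc RPM alone the difference was 0.018. That ranking, added after seeing the data, brings in summits with very high IgG. The highest pooled B4 IgG level was 1.64 RPM at a Myc-high summit and 76.4 RPM at another summit, and 83 other summits were above 1.64 RPM. With those 83 left out, the difference was 0.34 for the rank by Myc over IgG and 0.45 for the rank by Myc alone, both also added after seeing the data.

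**Figure D2:**
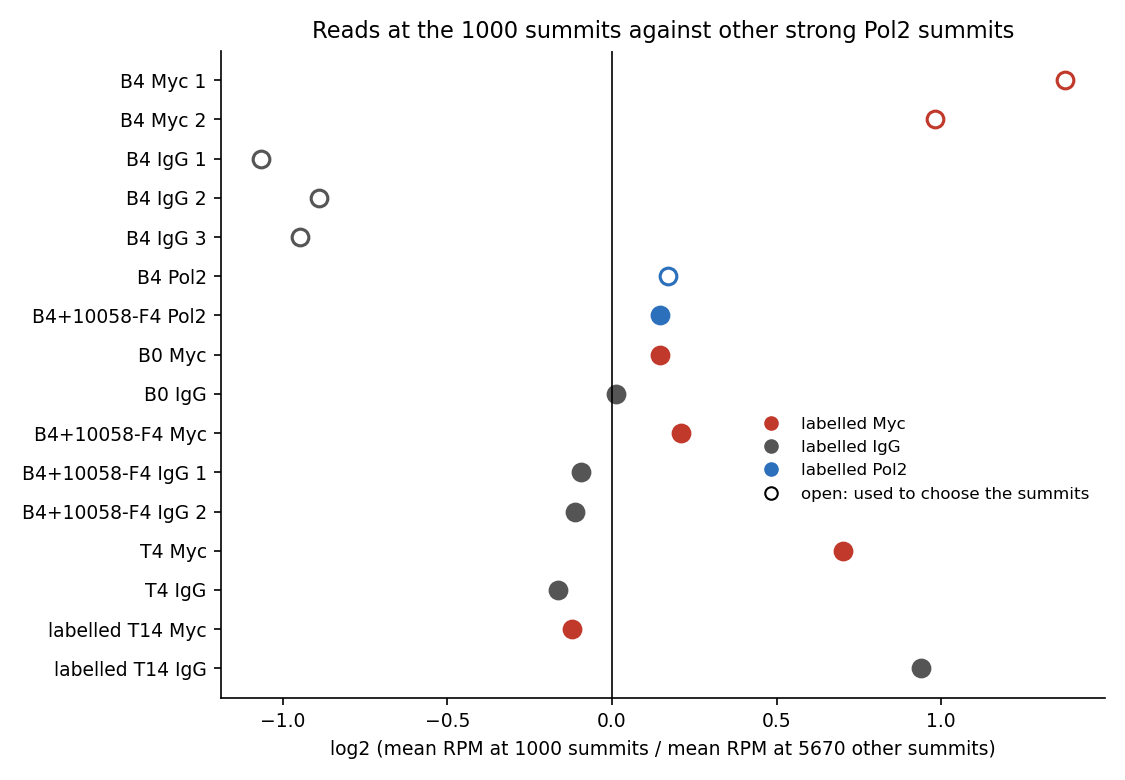
Log2 of the mean RPM at the 1000 Myc-high summits over that at the 5670 other summits (x axis), 1 point per library (y axis), coloured by the labelled antibody; open points were used to choose the summits. Among filled points the Myc libraries of B0, 10058-F4 and T4 lie at 0.15 to 0.70 and their IgG libraries at -0.16 to 0.01, and the library labelled T14 IgG lies at 0.94.

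The level in single summits overlapped widely between the sets. T4 Myc had a median of 1.81 RPM (quartiles 1.13 and 2.71) at the Myc-high summits and 1.13 RPM at the other summits. In B0 Myc the median was 1.35 RPM (0.942 and 1.75) against 1.21 RPM, and in 10058-F4 Myc it was 1.21 RPM (0.604 and 1.81) against 0.906 RPM. A level of 1.81 RPM in T4 Myc is 8 reads, so single summits carry wide counting error. Its part in this range was not tested. At this depth the summed reads carry more precision than any summit alone.

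**Figure D3:**
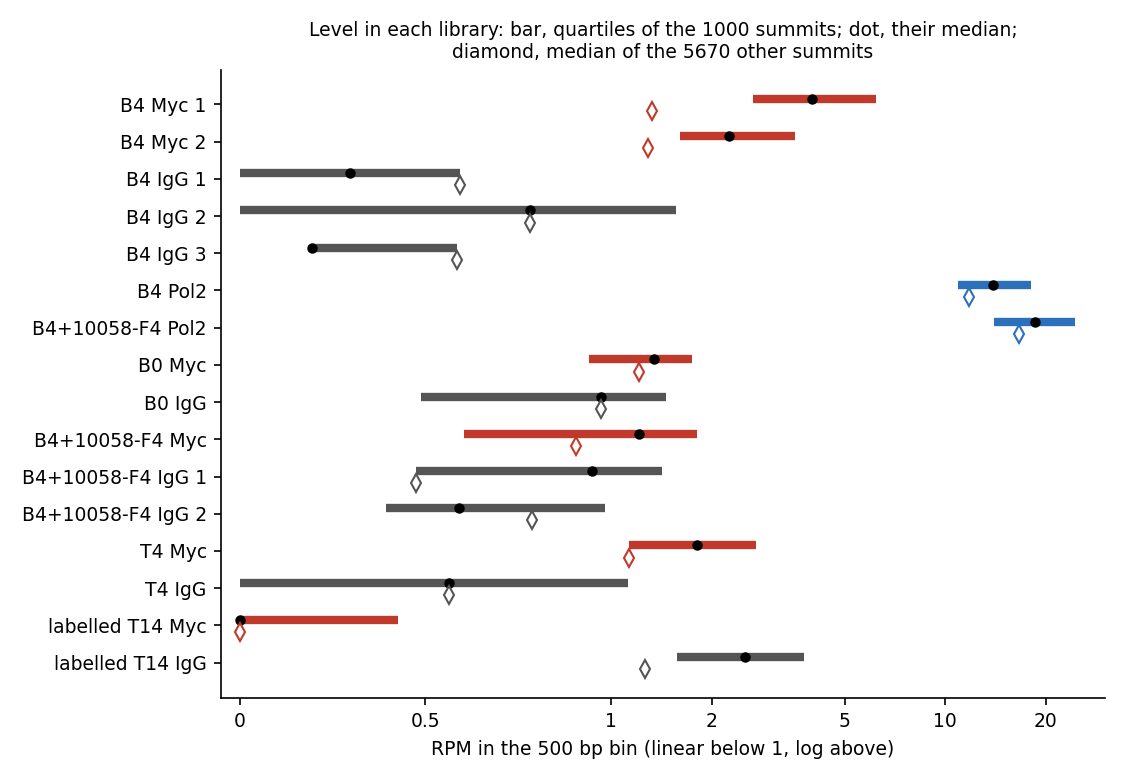
Level in RPM in the 500 bp bin (x axis, linear below 1 RPM and logarithmic above) in each of the 16 libraries (y axis): bars span the quartiles of the 1000 Myc-high summits, dots are their medians, and diamonds are the medians of the 5670 other summits. The T4 Myc bar begins where the median of the other summits lies, at 1.13 RPM, and the B0 Myc bar lies around the median of the other summits.

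Of B0, 10058-F4 and T4, T4 had the most Myc over IgG at these summits. Summed over the Myc-high summits, T4 Myc held 9374 reads and T4 IgG 1187, a 3.16-fold excess after scaling to library size (95% Clopper-Pearson interval 2.98 to 3.36). At the other summits the fold was 1.74 (1.69 to 1.78), or 1.99 (1.94 to 2.04) without the 83 summits of high IgG. Such intervals cover counting error only and not the spread between libraries, of which there was 1 on each side. The fold fell with rank in B4: it was 2.20 (2.08 to 2.34) at the next 1000 summits in the ranking and 1.02 (0.970 to 1.08) at the 1000 lowest. The last value rests on a few summits of high IgG: it was 1.68 (1.57 to 1.80) at the 956 of them that were not above 1.64 RPM of pooled B4 IgG. The median log2 value of the 1000 lowest was 1.13, and 50.7% of them were at least 2-fold. Within the Myc-high summits it was 4.87 (3.96 to 6.06) at ranks 1 to 100 and 3.06 (2.50 to 3.76) at ranks 901 to 1000. The order in between was uneven, with 4.79 (3.81 to 6.08) at ranks 501 to 600 and 1.96 (1.64 to 2.35) at ranks 801 to 900. Over single summits, the Spearman correlation between the B4 rank value and the T4 log2 value was 0.089 (n = 1000 summits that share libraries and depth), too weak to be read as a relation.

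**Figure D4:**
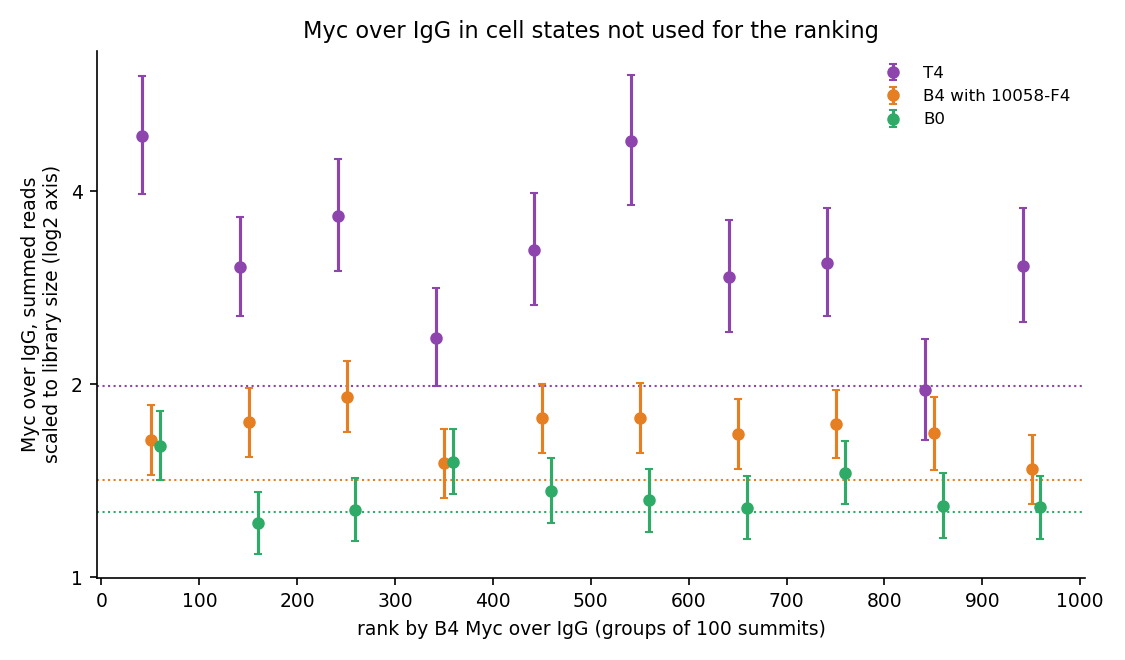
Myc over IgG from summed reads scaled to library size (y axis, log2 axis) in T4, 10058-F4 and B0 for groups of 100 Myc-high summits by rank (x axis), with 95% intervals of counting error; dotted lines are the other summits without those of high B4 IgG. T4 runs from 1.96 to 4.87 with no steady fall, and B0 stays between 1.21 and 1.60.

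Resting B cells and B cells given LPS with 10058-F4, with 1 Myc library each, had less Myc over IgG at these summits than T4. Both sides of the ratio differed between the states. Mean Myc was 1.39 RPM in B0 and 1.34 with 10058-F4, against 2.12 in T4. Mean IgG was 1.03 RPM in B0 and 0.912 and 0.749 with 10058-F4, against 0.669 in T4. In B0 the summed fold was 1.35 (1.31 to 1.40) at the Myc-high summits and 1.23 (1.21 to 1.25) at the other summits. With 10058-F4 it was 1.69 (1.62 to 1.75) and 1.35 (1.33 to 1.38). Without the 83 summits of high IgG, the other summits stood at 1.26 (1.24 to 1.28) in B0 and 1.42 (1.39 to 1.44) with 10058-F4. With 10058-F4 the next 1000 summits in the ranking stood at 1.65 (1.58 to 1.71) and the lowest 1000 at 1.07 (1.03 to 1.11), and in B0 they stood at 1.31 (1.26 to 1.36) and 1.13 (1.09 to 1.18). Without summits above 1.64 RPM of pooled B4 IgG, the lowest stood at 1.26 (1.20 to 1.32) and 1.27 (1.21 to 1.32). The Myc-high summits and the 1000 ranked next were thus within counting error of each other in both states, and apart in T4.

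Per summit, the median log2 of Myc over IgG was 1.76 in T4 (quartiles 0.63 and 4.07), 0.64 with 10058-F4 (-0.05 and 1.34) and 0.43 in B0 (-0.16 and 1.16). The medians of the other summits were 1.34, 0.36 and 0.38. Levels of at least 2-fold were reached in T4 at 657 Myc-high summits (65.7%, against 55.8% of all 6670), with 10058-F4 at 357 (35.7% against 28.3%) and in B0 at 290 (29.0% against 27.0%). The B0 share is close to that of all summits. The library labelled T14 IgG was at least 2-fold over the one labelled T14 Myc at 857 (85.7% against 73.3%). The library labelled T14 Myc held 0 reads at 573 of the Myc-high summits and at 56.7% of the other summits. With those set to 3 reads, the shares were 54.8% at the Myc-high and 26.4% at the other summits. T4 values per summit lean on a shallow control: T4 IgG held 0 reads at 395 Myc-high summits and at 43.2% of the other summits. With T4 IgG counts of 0 raised to a floor of 3 reads, the T4 medians were 0.53 and -0.27, and the shares of at least 2-fold were 31.7% and 13.1%. Other IgG counts below 3 were left as they were. Summits at 0 were thus given more IgG than those left below 3. Of the Myc-high summits 82 (8.2%) were at least 2-fold in all of B0, 10058-F4 and T4, against 4.74% of all summits, and 173 (17.3%) in none, against 24.0%.

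The choice of summits on B4 makes their own B4 level no fair match for B0 and 10058-F4, so the rule was repeated with 1 B4 replicate and its title-matched IgG library and read in the other. The Pol2 step used all B4 IgG libraries, the held-out one included. With that step on the IgG library of the choice alone, added after seeing the data, the same folds were obtained at the summits chosen. Summits chosen in replicate 1 had a summed fold of 3.20 (3.06 to 3.34) in replicate 2. The same summits had 1.35 (1.31 to 1.41) in B0, 1.59 (1.53 to 1.66) with 10058-F4 and 2.78 (2.61 to 2.95) in T4. Summits chosen in replicate 2 had 5.53 (5.26 to 5.82) in replicate 1, and 1.29 (1.24 to 1.33), 1.59 (1.53 to 1.66) and 2.56 (2.41 to 2.72) in the 3 other states. Both held-out B4 values were above those of resting cells and of cells with 10058-F4 by more than counting error. The libraries compared also differed in X chromosome reads and, for replicate 1, in read length, whose part was not tested. Between the B4 replicates themselves the values also differed by more than counting error. Part of the B4 level is shared by all strong Pol2 summits, since summits outside each choice stood at 2.26 (2.21 to 2.30) in replicate 2 and 3.54 (3.46 to 3.62) in replicate 1. The lists rest on few reads per summit: 467 and 509 of the summits chosen in 1 replicate were among the 1000 chosen in both together. No test set B4 against another state, since the B4 libraries chose the summits.

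Summit by summit, no call could be made. A model over 12 libraries in 8 groups (limma with voom weights, Benjamini-Hochberg adjustment, reads in 1 kb around the bin) tested the mean of Myc minus IgG over B0, 10058-F4 and T4. Its spread came only from the replicated groups, which were B4 Myc, B4 IgG and 10058-F4 IgG. The B4 libraries had chosen the summits, so p-values at the Myc-high summits rest in part on values that the choice used. The part of this in the counts below was not tested. All 1000 Myc-high summits passed the filter of 14 reads summed over the 7 libraries of that contrast. It called 0 of 6663 summits tested at an adjusted p of 0.05 (0.0%), and 0 Myc-high summits. At an unadjusted p below 0.05, 147 Myc-high summits were higher in Myc, where 8.1% of all tested summits were, and 1 was lower (0.18% of all). The limma-trend fit also called 0, with 106 higher at an unadjusted p below 0.05 (5.28% of all). State by state, 118 were higher in T4 at an unadjusted p below 0.05 (7.67% of all), 41 with 10058-F4 (2.57%) and 5 in B0 (0.585%), and 1 (0.18%), 3 (0.51%) and 0 (0.0%) were lower. The estimate of the mean effect was above 0 at 906 Myc-high summits, against 82.1% of all tested. Its median was 0.76 at the Myc-high and 0.52 at the other summits, a difference of 0.24. Scaling by trimmed means (TMM) moved the median of all summits from 0.56 to 0.08, and the difference between the sets stayed at 0.24. With TMM the B0 median of the Myc-high summits turned from 0.32 to -0.01, so the direction for B0 alone depends on the scaling. The counts moved with it too. With TMM, 69 Myc-high summits were higher at an unadjusted p below 0.05 (2.96% of all) and 12 lower (1.7%), and the estimate was above 0 at 685 (55.2% of all). In T4, 70 were higher (3.39%) and 13 lower (2.21%). With 10058-F4, 33 were higher (2.22%) and 7 lower (0.961%), and in B0 3 were higher (0.435%) and 14 lower (1.43%). The scarcity of lower summits thus held with scaling to library size and not with TMM.

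The 5 Myc-high summits of lowest adjusted p, between 0.515 and 0.558 in limma, are given with their reads in the 1 kb that was fitted. At chr11:59862501-59863000 the estimate was 2.74 ± 0.74 (SE), with 40 reads in T4 Myc against 0 in T4 IgG, 33 against 5 in B0, and 16 against 5 and 7 with 10058-F4. At chr11:6428501-6429000 it was 2.62 ± 0.75, with 46 against 0, 34 against 16, and 12 against 1 and 3. In both, Myc reads outnumbered IgG reads in each of the 3 states before scaling to library size. The Myc library was the deeper in B0, with 7433203 reads against 4108310, and in T4, with 4429042 against 1774572. At chr7:4392001-4392500 the estimate was 2.76 ± 0.81, with 20 against 0 in T4 and 17 against 1 in B0, and at chr14:29848001-29848500 and chr11:55313001-55313500 it was 2.40 ± 0.73 and 2.40 ± 0.74.

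Differences between the states were tested in the same limma fit and also gave 0 calls at an adjusted p of 0.05 (0.0% of all summits in each contrast, in either direction). For T4 minus B0, 42 Myc-high summits were higher at an unadjusted p below 0.05 (2.48% of all) and 0 lower (0.195%), with a median of 0.80 at the Myc-high and 0.45 at the other summits. For T4 minus 10058-F4, 31 were higher (2.13%) and 1 lower (0.36%), with medians of 0.66 and 0.38. For 10058-F4 minus B0, 2 were higher (0.39%) and 4 lower (0.435%), with medians of 0.27 and 0.12. The limma-trend fit also gave 0 calls, with 25 (1.41% of all), 39 (2.34%) and 0 (0.075%) higher at an unadjusted p below 0.05 in the same order. With TMM the counts were 50 higher (2.79%) and 6 lower (0.931%) for T4 minus B0, and 30 higher (1.98%) and 16 lower (1.82%) for T4 minus 10058-F4. For 10058-F4 minus B0 they were 18 higher (1.65%) and 6 lower (0.795%). The median of 10058-F4 minus B0 was -0.03 at the Myc-high summits without 10058-F4 IgG replicate 2, so its direction rested on that library. T cells had reads of 25 bases and B cells in these contrasts had 45, so cell type and read length cannot be told apart. The T4 libraries also differed from these B cell libraries in X chromosome reads, whose part was not tested.

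The summits with the most T4 Myc over IgG, among 398 with at least 10 T4 Myc reads, all had 0 T4 IgG reads. At chr5:142620001-142620500 T4 Myc had 51 reads and T4 IgG 0, at least 6.81-fold higher when IgG is set to the floor of 3 reads. At chr11:6428501-6429000 it was 39 against 0 (at least 5.21-fold), at chr11:59862501-59863000 it was 36 against 0 (at least 4.81-fold), and at chr3:88263501-88264000 and chr17:24843001-24843500 it was 33 against 0 (at least 4.41-fold each). B4 Myc at these 5 ranged from 19 to 52 reads in replicate 1 and from 6 to 46 in replicate 2. Of the 5, chr17:24843001-24843500 had 5 Myc reads with 10058-F4 against 5 and 5 IgG reads.

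The opposite end in T4 was taken among 490 with at least 10 T4 reads in Myc and IgG together. A low value with that many reads needs IgG reads, so the IgG counts here follow in part from the filter. Of the summits below, only chr3:58780001-58780500 had at least 10 T4 Myc reads by itself. At chr8:108948501-108949000 T4 Myc had 4 reads and the shallower IgG library 6, a log2 value of -1.80. At chr17:36445001-36445500 it was 6 against 7 (-1.48), at chr11:117785001-117785500 it was 5 against 5 (-1.25), at chr3:58780001-58780500 it was 11 against 9 (-1.0), and at chr2:112293501-112294000 it was 7 against 5 (-0.80). Of these, chr3:58780001-58780500 had 17 and 6 Myc reads in B4 and 12 with 10058-F4.

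In B0, the 5 highest of 519 summits with at least 10 Myc reads all had 12 Myc reads and 0 IgG reads, at least 2.21-fold over the floor of 3 reads. They were chr7:4392001-4392500, chr15:38023501-38024000, chr11:102833001-102833500, chr5:31325001-31325500 and chr12:88361001-88361500. All 5 thus shared 1 value, which rested on 12 reads. T4 Myc had 6 to 14 reads and T4 IgG 0 at each of them, as T4 IgG had at 39.5% of the Myc-high summits. With 10058-F4 the log2 values of Myc over IgG were 1.30, 0.72, 1.89, -0.17 and -1.22 in the order listed.

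The shape of the read density followed the antibody in T4. The density of T4 Myc reads within the 500 bp bin was 5.27 times that 1 to 2 kb away at the Myc-high summits and 3.26 times at the other summits, while T4 IgG was 2.14 and 2.22 times. In B0 the ratios were 3.97 and 3.24 for Myc and 3.34 and 2.99 for IgG. With 10058-F4 they were 4.81 and 3.80 for Myc, 2.87 and 2.71 for IgG replicate 1 and 2.71 and 2.70 for IgG replicate 2. IgG density thus peaked at Pol2 summits in each of these states as well. Pol2 itself rose 13.6 times in B4 and 15.1 times with 10058-F4 at the Myc-high summits, against 11.3 and 12.1 times at the other summits. Plus-strand and minus-strand reads lay 50.6 bases apart on average in T4 Myc at the Myc-high summits and 13.9 bases in T4 IgG. With 10058-F4 the offsets were 85.0 bases for Myc, 51.1 for IgG replicate 1 and 56.7 for IgG replicate 2. In B0 the offsets were 67.7 bases for Myc and 80.2 for IgG, so Myc was not the larger there.

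**Figure D5:**
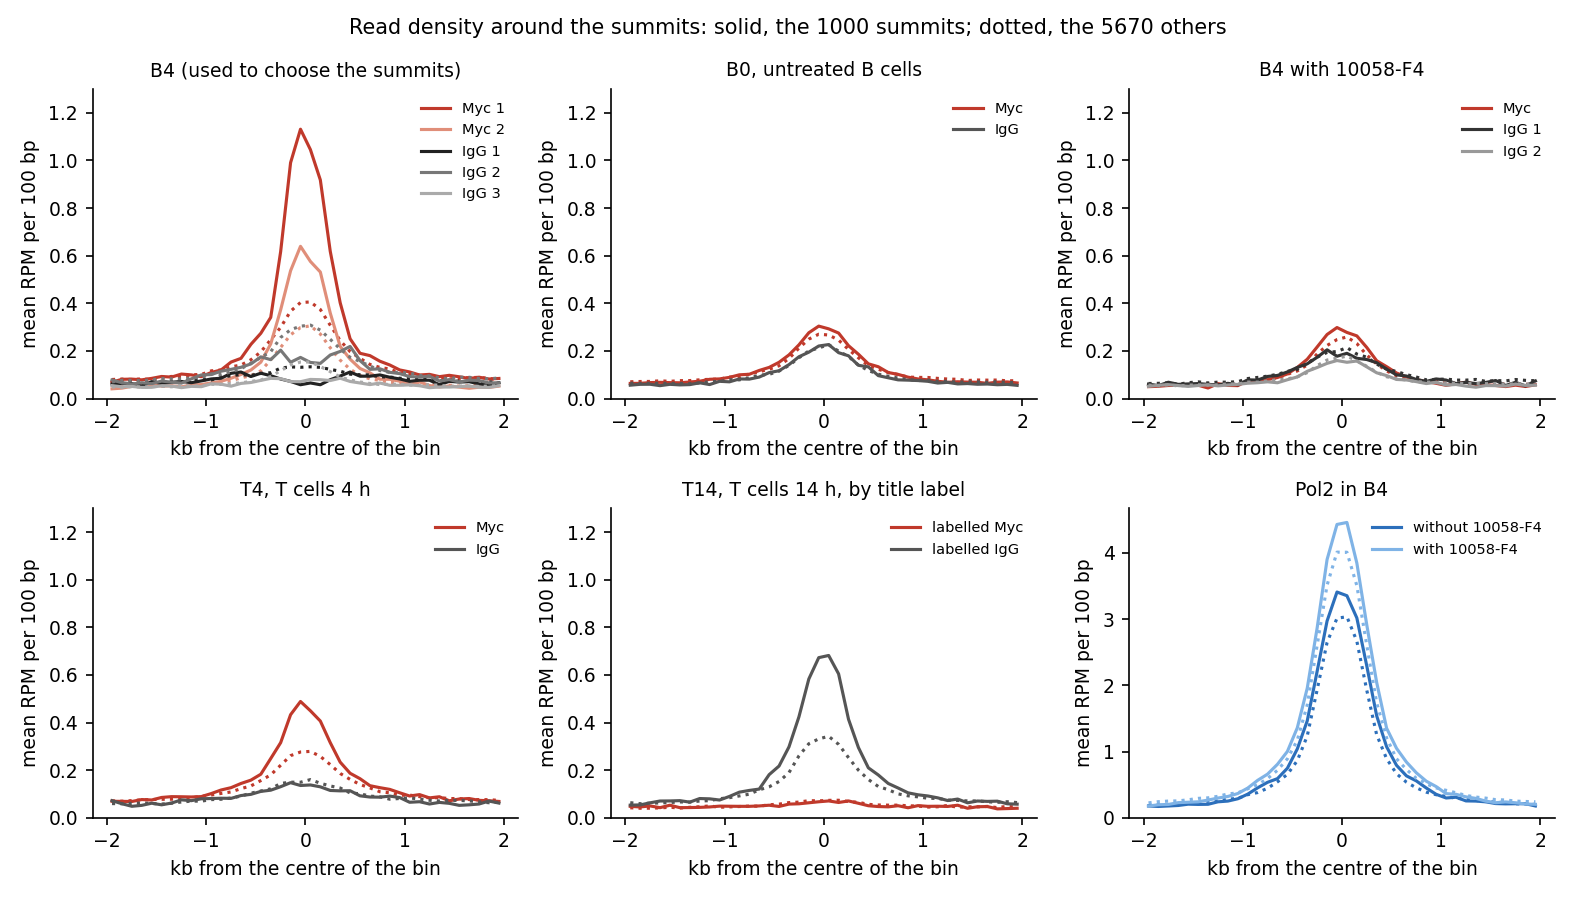
Mean RPM per 100 bp (y axis) by distance in kb from the bin centre (x axis) for each library, solid at the 1000 Myc-high summits and dotted at the 5670 other summits; the Pol2 panel has its own scale. In T4 the solid Myc line stands above the dotted one while the IgG lines lie close together, and with 10058-F4 the solid Myc line is above the solid IgG lines at the centre.

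Pol2 was somewhat higher at the Myc-high summits, and its change with 10058-F4 was close to that at the other summits. The B4 Pol2 level, which the choice used, had a median of 33 reads against 28. With 10058-F4 the mean was 19.8 RPM against 17.9 RPM, a log2 ratio of 0.14, where B4 had 0.17. The log2 change in Pol2 with 10058-F4 had a median of 0.36 (95% interval over summits 0.32 to 0.40) at the Myc-high summits and 0.38 (0.36 to 0.39) at the other summits. It was above 0 at 771 (77.1%, against 76.1% of all), at least 2-fold up at 74 (7.4% against 9.87%) and at least 2-fold down at 12 (1.2% against 1.9%). Scaling to background bins raised the medians alike, to 0.48 and 0.50. With 1 Pol2 library on each side there is no replicate check, and the B4 library had also chosen the bins as local maxima.

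Single summits reached well beyond these medians. The highest changes were at chr10:59306501-59307000, from 21 to 151 Pol2 reads (log2 1.73), at chr4:123419501-123420000, from 29 to 200 (1.67), and at chr18:73940501-73941000, from 22 to 149 (1.64). The lowest were at chr2:102695501-102696000, from 21 to 2 (-4.19), at chr16:20533501-20534000, from 22 to 11 (-2.06), and at chr8:108148501-108149000, from 26 to 15 (-1.87). The 10058-F4 Pol2 library was the deeper, with 5130471 reads against 2377368. Each of the 6 had 21 to 29 reads in B4, near the minimum of 20 for entering the set.

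All summits were cut into 4 classes of B4 Pol2 level of about equal size. In both sets, T4 Myc over IgG was higher in the highest class than in the lowest. The exception was summed reads at the other summits with those of high IgG kept. Over single summits, B4 Pol2 RPM and the T4 log2 value had weak Spearman correlations, 0.16 at the Myc-high and 0.067 at the other summits. The summed T4 fold at the Myc-high summits was 2.29 (1.98 to 2.65) in the lowest class, 2.64 (2.28 to 3.06) and 3.01 (2.68 to 3.39) in the next, and 4.00 (3.62 to 4.43) in the highest. At the other summits it was 1.78, 1.98, 1.99 and 2.20 in the same order without the 83 summits of high IgG, and 1.77, 1.96, 1.98 and 1.42 with them. The share of at least 2-fold rose from 57.3% in the lowest to 72.2% in the highest class at the Myc-high summits, and from 51.6% to 57.3% at all other summits. The classes held 192, 192, 264 and 352 Myc-high summits, so these lay toward strong Pol2. With 10058-F4 the folds at the Myc-high summits were 1.46 in the lowest and 1.89 in the highest class, and in B0 1.21 and 1.37. At the other summits without those of high IgG they were 1.33 and 1.46 with 10058-F4, and 1.29 and 1.26 in B0. With those of high IgG kept they were 1.33 and 1.24, and 1.29 and 1.16. In the lowest class the B0 fold was thus not higher at the Myc-high summits (1.11 to 1.32) than at the others. A test of the difference between the sets across classes was not made.

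By position the Myc-high summits were spread like other strong Pol2 summits. Their share of a chromosome's strong summits ran from 12.1% on chromosome 1 to 18.4% on chromosome 5, and chromosome 11 held the most, 112 of 682. Another strong summit lay within 10 kb of 20.5% of them and of 23.7% of the others. Another Myc-high summit lay within 50 kb of 18.3% of them, and a Myc-high summit lay within 50 kb of 15.6% of the others. The run of bins with Pol2 around the summit had a median of 1.5 kb in both sets. Summits whose Pol2 filled a single bin were 5.4% of the Myc-high and 10.2% of the other summits. These shares have no test here, and the part of Pol2 strength, which differed between the sets, was not tested.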

How the data were processed

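ChIP-seq read lists of 16 libraries were used. The files the authors deposited hold neither counts nor normalised values: each line is 1 aligned read with its chromosome, its positions and length in bases (other values) and strand. Per the submitters' processing notes, CASAVA 1.0, Bowtie 0.12.7 and build mm8 were used; settings, and whether positions count from 0 or 1, are not given in the sources used here, so a coordinate may be off by 1 base.

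Groups came from the sample titles. The summits and all lists were chosen with earlier results of these data known. Read midpoints were counted in 500 bp bins, all reads kept (5.29% shared a 5′ end in B4 Myc replicate 1, at most 0.0808% elsewhere), and divided by reads on chromosomes 1 to 19 (RPM). IgG libraries of a state were pooled. Folds of summed reads have Clopper-Pearson 95% intervals, medians order-statistic intervals. Replicates were checked for identity by chi-square over summits (1.47 to 1.84 per degree of freedom), and each counted once.

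Tests were a two-sided exact permutation over libraries and limma 3.58.1 with voom weights (R 4.3.3), 4 residual degrees of freedom, tested on simulated data; lone libraries are assumed to vary like replicated groups. The titles pair B4 Myc 1 with IgG 1 and Myc 2 with IgG 3. Named summits were the 10 of highest rank, the 3 on each side of the limit, the 5 highest and 5 lowest in T4, the 5 highest in B0, the 5 of lowest adjusted p, and the 3 highest and 3 lowest in Pol2 change. T14 entered only as an alternative, its labels being in doubt. Other alternatives changed the pseudocount, window, number of summits, scaling (TMM factors computed by a script after the published method), fit and libraries.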

Additional observations from a re-analysis of the deposited data

Results flagged for a closer look

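A signal appeared in libraries that the comparisons of states did not use. At the Myc-high summits the library labelled T14 IgG held 9517 reads and the library labelled T14 Myc 778, a 9.03-fold excess of labelled IgG over labelled Myc after scaling to library size (95% interval 8.39 to 9.73). At the other summits it was 4.33 (4.20 to 4.47), and at ranks 1 to 100 it was 14.4 (11.2 to 18.8). The library labelled T14 IgG was 3.0 RPM at the Myc-high and 1.57 RPM at the other summits, and the library labelled T14 Myc was 0.332 and 0.362 RPM. At chr5:142620001-142620500 they held 67 and 0 reads. The level in the bin over that 1 to 2 kb away was 8.56 for labelled IgG and 1.46 for labelled Myc. Across the Myc-high summits the Spearman correlation of the RPM of the library labelled T14 IgG with that of T4 Myc was 0.62, against 0.45 at the other summits (5670), as a description of summits that share libraries. The names of the deposited files give the antibodies in reverse of the titles, and the values were kept under the titles.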

How the results depend on the processing

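Of 245 recomputed values, 128 are counts of 0 calls that stayed at 0 and show nothing about stability. Of the other 117, 13 moved by more than their interval over summits and 104 were counted as unchanged. The library difference of 0.018 with ranking on Myc alone was among the 104. So were 45 values of single named summits, set against intervals of counting error. Library differences counted as changed only if they turned sign or their exact permutation p fell below 0.05. With 3 against 4 libraries such a p could not be reached, so the tally shows little about their stability. Medians of the limma fits are not in these numbers, and those for B0 and for 10058-F4 minus B0 could turn. With a pseudocount of 1 RPM the median log2 of Myc over IgG at the Myc-high summits was 0.25 in B0, 0.33 with 10058-F4 and 0.89 in T4, and the held-out B4 medians of 1.49 and 2.24 were 0.72 and 1.20. In 1 kb around the bin the medians were 0.50 with 10058-F4, 1.34 in T4 and 1.88 in the second held-out choice. With 2000 summits the T4 median was 1.60. Ranking on B4 Myc alone, chosen after seeing the data, gave 0.75 with 10058-F4. The 10058-F4 median was 0.49 to 0.66 when a B4 library was left out of the choice, and 0.62 to 0.78 without either 10058-F4 IgG library (also chosen after seeing the data). Background scaling gave a Pol2 change of 0.48.

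The library difference of 0.44 was 0.25 to 0.46 when a B4 library was left out of the choice and 0.27 to 0.55 when a compared library was left out, with exact permutation p of 0.1 or 0.133, the smallest left. It was 0.80 in the highest of 4 classes of Pol2, with the other summits of high IgG kept. In that class the summed T4 fold at the other summits was 1.42 with them and 2.20 without, and the library difference without them was not computed. Leaving out B4 IgG replicate 3 kept 591 of the 1000 summits, the fewest. The limma fits called 0 Myc-high summits under every alternative; the additive fit on 7 libraries called 4 of the other summits and had 230 Myc-high summits higher (13.0% of all) and 1 lower (0.33%) at an unadjusted p below 0.05. With a replicate block on the pairing that B4 titles give, 0 were called and 235 were higher at an unadjusted p below 0.05 (13.9% of all), against 192 (10.7%) without the block on the same libraries; deviations of the pairs correlated at 0.064. At most summits depth was a few reads per library, which limits single-summit values more than summed ones.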
